A study of Mus musculus with 37 samples.

Results

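The cerebellum of wild-type mice was compared with 3 other regions of the same brains: the olfactory bulb, the cortex and the brain stem. The members are the arrays of mice whose titles give 2 copies of the chromosomal interval studied, which are 15 of the 37 arrays of the series. They hold 12 of its 31 region samples, 1 for each of 4 regions in each of 3 of its 8 mice. All 8 mice were F1 hybrid males of C57BL/6N and 129Sv. The 3 wild-type mice are +/+ and carry no engineered allele. The other groups are 2 df/+ mice with a heterozygous deletion, and 3 dp/+ mice with a heterozygous duplication, of the mouse interval that corresponds to human 16p11.2. The study set out to relate expression in the brain to the number of copies of that interval, and the age of the mice is not given in the sources used here. Here the deletion and duplication mice serve as a repeat of the regional comparison in other animals. They also enter a check of the labels and a test of whether the cerebellar difference depends on genotype.

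The cerebellar cortex is built from a small set of neuron types. Granule cells, the most numerous neurons of the brain, send parallel fibres to the Purkinje cells, whose inhibitory axons are the sole output of the cerebellar cortex. Basket, stellate, Golgi and unipolar brush cells work between them, and Bergmann glia ensheath the Purkinje cell synapses. Whole regions were homogenised, so fewer cells of a type and less RNA per cell cannot be told apart. Levels are log2 values of 1 probe set per gene, and levels of different genes were not compared. A difference is the cerebellum minus the mean of the other 3 regions on the log2 scale, with its standard error (SE) from a fit over 3 mice. A gene counted as higher or lower where the adjusted p was under 0.05 (limma with the mouse as a block, Benjamini-Hochberg over all 19938 genes). It counted as higher or lower than each region where the same held against all 3 regions separately. Nothing in the labels places the 3 mice in separate litters or batches, so p-values measure the spread between these samples.

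The 12 samples grouped by region, and the first 3 principal components held 46.4, 27.4 and 14.1% of the variance. The median over genes of the SD between mice within a region was 0.11. The 3 samples with 2 arrays each gave a median technical SD between 0.053 and 0.062. Array medians lay between 7.33 and 7.46. The olfactory bulb of mouse 1 stood apart, with 323 genes more than 0.5 above and 814 more than 0.5 below the mean of the other 2 bulbs. Brain stems differed among themselves too. The sample of mouse 3 read 8.95 for the choroid plexus gene Ttr against 12.39 and 12.98 in mice 1 and 2. For the forebrain factor Tbr1 it read 6.45 against 8.49 and 9.08. Over all genes it deviated least, with 79 more than 0.5 above and 139 more than 0.5 below the mean of the other 2. These counts were 336 and 303 for the brain stem of mouse 1, and 234 and 224 for that of mouse 2. Calls either way numbered 7966 without the olfactory bulb of mouse 1, 7497 without the brain stem of mouse 3, and 7201 with that brain stem as the only one, against 7774 with all 12 samples.

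Each region carried its own defining genes. Omp, the olfactory marker protein, ran from 10.75 to 11.24 in the olfactory bulbs and from 6.26 to 7.02 in the other 9 samples. Tph2, which makes serotonin, ran from 9.54 to 9.85 in the brain stems and from 5.54 to 6.08 elsewhere. The cortex samples also held striatal genes, with the dopamine receptor Drd2 at 10.95 to 11.25, and the brain stem samples held the hypothalamic peptide Pmch at 9.92 to 10.71. The extent of each dissection is not given in the sources used here, and its part in the differences below was not tested.

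In the +/+ mice, 4158 genes were higher in the cerebellum than in the mean of the other regions, 20.9% of those tested, and 3616 were lower, 18.1%. Of these, 445 (2.23%) were at least 2-fold higher and 670 (3.36%) at least 2-fold lower. Against each of the 3 regions, 1834 genes were higher (9.20%) and 1460 were lower (7.32%). At least 2-fold over each region stood 258 genes (1.29%), and at least 2-fold under each stood 322 (1.62%). The count lower than each fell to 961 without mouse 2. The balance of directions depended on the scale of the arrays: the higher calls were 53.5% of all calls on the deposited scale, 46.2% after cyclic loess and 38.8% (3001 higher, 4742 lower) with each array centred on its median. The median difference of all genes was 0.029 on the deposited scale and -0.048 after that centring, so differences of a few hundredths carry no direction. Of the 1834 genes higher than each region, 1759 had all 3 cerebellum samples above all 9 others, and of the 1460 lower ones, 1367 had all 3 below. Both counts come from the samples that gave the calls, so they add no support to them. The same holds for the statements below on overlap in single genes, many of them picked for large differences. The share of all genes without overlap is not given here.

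Among genes higher than each region, 72 were at least 4-fold and 9 at least 16-fold over the mean of the others. On the lower side the corresponding counts were 170 and 7. The gene with the largest positive difference was Gabra6, which encodes the alpha 6 subunit of the GABA-A receptor, found in granule cells. It read 12.37, 12.45 and 12.55 in the cerebella of mice 1 to 3. The olfactory bulbs gave 5.48, 5.59 and 5.36, the cortices 5.26, 5.22 and 5.32, and the brain stems 5.94, 6.56 and 6.72. All 3 cerebella stood far above the other 9 samples, a difference of 6.74 (SE 0.11, 107-fold, adjusted p = 2.37e-16). The bulb and cortex values lay below the lower quartile of every array (5.72 to 5.91), where probe sets near background understate differences, so this fold is one of array signals.

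Cbln3 came next, a secreted cerebellin made by granule cells. Its levels were 12.42, 12.75 and 12.74 in the cerebella, 6.56, 6.91 and 6.84 in the bulbs, 6.40, 6.68 and 6.54 in the cortices, and 6.86, 7.39 and 7.62 in the brain stems. The groups did not overlap, and the difference was 5.77 (SE 0.083, 54.5-fold, adjusted p = 9.47e-17). Behind them stood Ppp1r17, the G-substrate of Purkinje cells, at 5.32 (SE 0.091), the giant protocadherin Fat2 of granule cells at 5.07 (SE 0.092) and Arhgef33, a guanine nucleotide exchange factor, at 4.98 (SE 0.068). En2, the engrailed factor of the midbrain and hindbrain, followed with 4.52 (SE 0.071), and Cnpy1, a gene of the isthmus organiser, with 4.32 (SE 0.085). The list went on with Car8 (4.18), the cytokine gene Il16 (4.14), Neurod1 (3.98), Pcp2 (3.97), Dao (3.71), the phosphatase gene Ptpn22 (3.39), the calcium pump gene Atp2a3 (3.37) and the glycosyltransferase gene B3gnt5 (3.20). In each of these 15 genes the lowest cerebellum sample was above the highest of the other 9.

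On the lower side the largest difference was that of Ddn, which encodes dendrin of forebrain dendrites and spines. It read 6.08, 5.74 and 5.62 in the cerebella, 10.71, 11.68 and 11.54 in the bulbs, 12.03, 11.86 and 11.95 in the cortices, and 9.78, 10.79 and 8.89 in the brain stems. No other sample came down to the cerebellar values, although the brain stems differed among themselves, and the difference was -5.21 (SE 0.24, 37.0-fold lower, adjusted p = 3.90e-11). The cerebella of mice 2 and 3 lay below the lower quartiles of their own arrays, so the same limit holds for this fold. Gabra5, the alpha 5 subunit of extrasynaptic GABA-A receptors in hippocampus and cortex, gave 7.41, 6.92 and 6.64 in the cerebella and 11.29 to 12.28 elsewhere, a difference of -4.71 (SE 0.10). The pseudokinase gene Camkv (-4.12), the tyrosine kinase gene Ptk2b (-4.11), the dendritic lysosomal protein gene Lamp5 (-4.07), the guanine deaminase gene Gda (-4.05) and the homeobox gene Meis2 (-4.04) followed. Lamp5 had the widest spread within the cerebellum of these, with 7.62 in mouse 1 and 6.54 and 6.28 in the other mice. The rest of the 15 were the channel genes Kcnh5 (-3.92) and Scn3b (-3.84), the exchange factor gene Rasgrf2 (-3.82), Ctxn1 (-3.76), Dbpht2 (-3.76), the copine gene Cpne6 (-3.69), the postsynaptic scaffold gene Lrrc7 (-3.64) and 1700086L19Rik (-3.63).

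**Figure D1:**
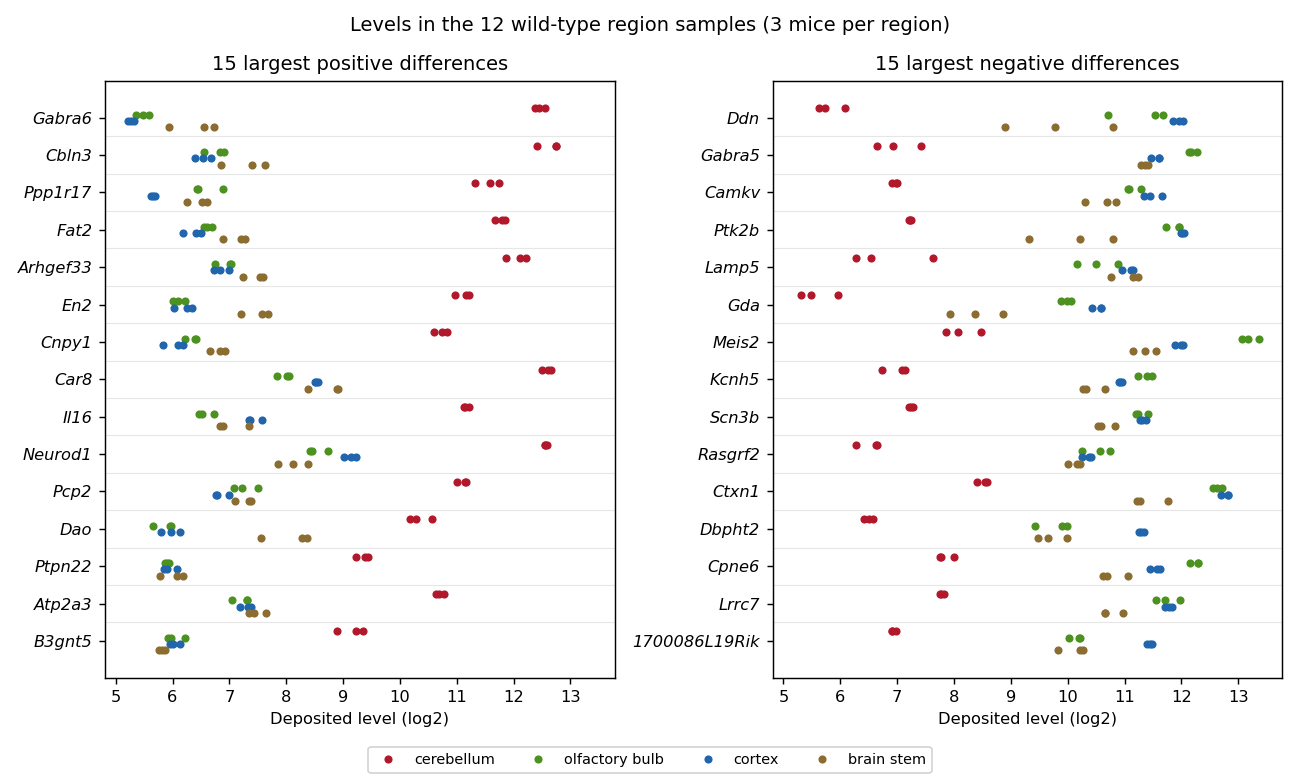
Levels (log2) of the 15 genes with the largest positive and the 15 with the largest negative difference among genes higher or lower than each other region, 1 point per sample of the 12 +/+ region samples, coloured by region. For Gabra6 the 3 cerebella lie between 12.37 and 12.55 and the other 9 samples between 5.22 and 6.72; for Ddn the cerebella lie between 5.62 and 6.08 and the others between 8.89 and 12.03.

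All 16 listed granule cell markers were higher in the cerebellum, 15 of them than in each region, where 20.9% and 9.20% of all genes were called so. Their median difference was 2.06. Neurod1, a basic helix-loop-helix factor needed for granule cells to differentiate and survive, read 12.56, 12.55 and 12.59 in the cerebella and 7.86 to 9.23 in the other samples. Its difference was 3.98 (SE 0.094, adjusted p = 1.61e-14), with no overlap. Cbln1, a secreted organiser of parallel fibre synapses, gave 12.37, 12.36 and 12.37 in the cerebella, 9.70 to 10.06 in the bulbs, 8.17 to 8.31 in the cortices and 9.86 to 10.19 in the brain stems, a difference of 2.98 (SE 0.079). Mab21l1 (2.75), the secretion protein gene Cadps2 (2.36), Zic1 (2.10), the Rac regulator gene Chn2 (2.02), Zic2 (1.89), the NMDA receptor subunit gene Grin2c (1.81), Pax6 (1.79), the vesicle priming gene Unc13c (1.68), Etv1 (1.36) and Barhl1 (1.08) were also higher than each region. Pax6, the paired-box factor of granule cell precursors, was close to its olfactory bulb level, with 10.54 to 10.64 in the cerebella and 10.06 to 10.25 in the bulbs against 7.88 to 8.24 in the other regions. Calb2, the calcium-binding protein calretinin, was the exception among the 16: the cerebella gave 12.31, 12.42 and 12.45, and the bulbs, at 12.61, 12.40 and 12.52, overlapped with them.

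Promoter windows of 3 of the 4 genes with the largest positive differences follow, since these genes mark the cerebellum most sharply. Ppp1r17 had no entry in the table. Each window runs from 250 bases before to 50 after the start in RefSeq (GRCm38.p6, minus strand for all 3), and capitals mark a match to AGGTCA, the letters bound by the Purkinje cell factor ROR alpha, to CAGATG, an E-box, or to TTGGCA, part of the site of nuclear factor I, on either strand. The windows lie at chr11:42321023-42321322 (Gabra6), chr14:55884207-55884506 (Cbln3) and chr11:55312208-55312507 (Fat2).
Gabra6: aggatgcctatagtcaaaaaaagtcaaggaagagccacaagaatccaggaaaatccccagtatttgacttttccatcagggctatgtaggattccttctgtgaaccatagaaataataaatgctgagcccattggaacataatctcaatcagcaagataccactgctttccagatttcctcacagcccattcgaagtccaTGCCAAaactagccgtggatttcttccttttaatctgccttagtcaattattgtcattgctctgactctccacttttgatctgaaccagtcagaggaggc
Cbln3: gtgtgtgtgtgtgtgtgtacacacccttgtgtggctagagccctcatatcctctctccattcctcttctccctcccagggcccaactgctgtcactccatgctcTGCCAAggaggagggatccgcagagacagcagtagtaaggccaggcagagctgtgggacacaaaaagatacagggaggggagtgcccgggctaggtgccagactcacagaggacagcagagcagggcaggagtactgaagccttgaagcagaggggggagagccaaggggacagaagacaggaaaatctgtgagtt
Fat2: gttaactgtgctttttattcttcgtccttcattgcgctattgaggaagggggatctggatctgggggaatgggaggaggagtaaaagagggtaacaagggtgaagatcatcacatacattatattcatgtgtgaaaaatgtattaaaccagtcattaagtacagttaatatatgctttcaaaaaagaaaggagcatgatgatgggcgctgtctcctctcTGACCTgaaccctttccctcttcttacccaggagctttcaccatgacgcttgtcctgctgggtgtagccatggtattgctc
The windows of Gabra6 and Cbln3 each held 1 TTGGCA, written as its reverse complement TGCCAA, and that of Fat2 held 1 AGGTCA, written as TGACCT. Such matches were about as frequent among the genes higher than each region as among all genes. TTGGCA lay in 12.6% of the 1439 windows found for the higher genes, in 12.4% of the 1127 for the lower genes and in 12.9% of all 15614. AGGTCA lay in 14.6, 9.76 and 13.9% of them, and CAGATG in 11.9, 12.2 and 14.1%. A match describes the letters and is not a binding site.

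Of 16 Purkinje cell markers with a value, 14 were higher in the cerebellum and 1 was lower, with a median difference of 2.22. Higher than each region were 13. Over all genes 20.9% were higher, 18.1% lower and 9.20% higher than each region. Ppp1r17 gave 11.32, 11.58 and 11.75 in the cerebella against 5.62 to 6.89 elsewhere. Car8, a carbonic anhydrase-related protein of Purkinje cells, gave 12.50, 12.61 and 12.66 against 7.84 to 8.92, and Pcp2, the Purkinje cell protein L7, gave 11.01, 11.14 and 11.16 against 6.77 to 7.50. In none of these 3 genes did a sample of another region reach the cerebellar range. Other members higher than each region were the factor Lhx1 (2.96), the glutamate transporter gene Slc1a6 (2.94), the scaffold gene Homer3 (2.76), the calcium buffer gene Calb1 (2.35), Grid2ip (2.10), Rora (1.25), Lhx5 (1.11), Plcb4 (1.10) and Skor2 (0.96).

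Markers of the same cell did not all move alike. Foxp2, a forkhead factor made in Purkinje cells and in many forebrain neurons, was lower in the cerebellum than in each region. It read 8.20, 8.29 and 8.20 there and 9.10 to 9.62 elsewhere, a difference of -1.14 (SE 0.077, adjusted p = 3.96e-09). Pcp4, a calmodulin-binding peptide, was 12.48, 12.54 and 12.57 in the cerebella and 12.16 to 12.60 in the others, and its difference of 0.17 (SE 0.071) did not pass the test (adjusted p = 0.0815). Ebf2, a factor of a subset of Purkinje cells, was above all 9 other samples, but the brain stems at 7.74 to 7.87 lay close under the cerebella at 8.04 to 8.10.

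The interneuron list was mixed, with 6 of 10 markers higher, 2 lower and a median difference of 1.12. Over all genes 20.9% were higher and 18.1% lower. Pvalb, parvalbumin of basket, stellate and Purkinje cells, gave 12.61, 12.72 and 12.74 in the cerebella, 7.54 to 8.10 in the bulbs, 9.93 to 10.40 in the cortices and 11.23 to 11.63 in the brain stems. Its difference was 2.85 (SE 0.091) and no group overlapped with the cerebellum. Tfap2b, a factor of developing inhibitory interneurons, differed by 2.80 (SE 0.099) and Kit, a receptor of basket and stellate cells, by 1.64 (SE 0.084), both higher than each region. Slc6a5, the glycine transporter of Golgi cells, had 10.53, 10.42 and 10.05 in the cerebella but 11.60, 12.08 and 12.23 in the brain stems. Eomes, a factor of unipolar brush cells, had 9.10, 9.30 and 9.95 in the cerebella and 10.63, 10.80 and 11.09 in the bulbs, where it marks the projection neurons. In the remaining regions Slc6a5 read 6.51 to 6.95 and Eomes 6.05 to 6.81, so each was higher than the mean of the 3 (1.86 and 1.53) but lower than 1 of them. Pax2 was higher (0.71) with brain stem levels inside its cerebellar range, Grm2 (-0.93) and Sorcs3 (-0.37, a call lost without mouse 2) were lower, and Lgi2 (-0.20) and Gjd2 (-0.072) did not pass the test.

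Bergmann glia markers were higher in 9 of 12 cases and lower in 1, with a median difference of 0.97. The shares over all genes were 20.9% and 18.1%. Dao, D-amino acid oxidase of hindbrain astroglia, gave 10.29, 10.17 and 10.57 in the cerebella, 5.65 to 6.14 in the bulbs and cortices, and 7.55, 8.36 and 8.27 in the brain stems. Its difference of 3.71 (SE 0.14) therefore included a brain stem signal. Gdf10, a secreted factor of Bergmann glia, gave 10.53, 10.35 and 10.48 against 7.66 to 8.76, a difference of 2.30 (SE 0.067) with no overlap. Timp4 (1.46), Hopx (1.33), Tnc (1.21), the AMPA receptor gene Gria4 (1.07), Septin4 (0.87) and the glutamate transporter gene Slc1a3 (0.72) were higher than each region. Fabp7 was lower (-0.42, SE 0.087), with 13.39 to 13.58 in the bulbs, where olfactory ensheathing glia make it, and 12.02, 12.08 and 12.47 in the cerebella. Wif1 (-0.043) and Gria1 (-0.047) did not pass the test, and Ptprz1 (0.23, adjusted p = 0.0266) lost its call whichever mouse was left out.

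**Figure D2:**
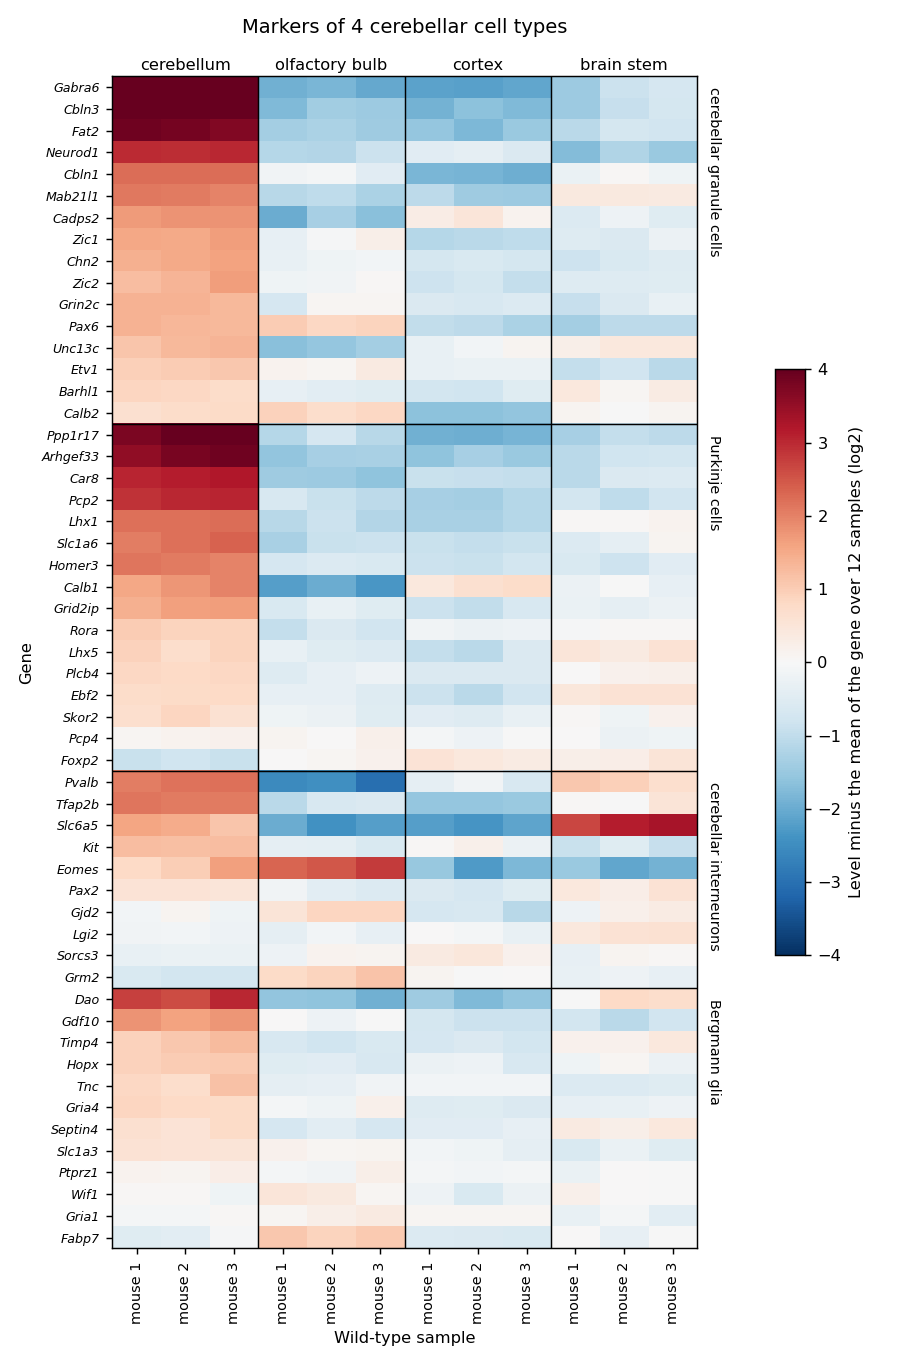
Level of each listed marker of granule cells, Purkinje cells, cerebellar interneurons and Bergmann glia in the 12 +/+ region samples, as the log2 level minus the gene's mean over those samples; colours end at 4 in either direction and values beyond are drawn at 4. The 16 granule cell rows are high in all 3 cerebella, while Foxp2 is low there and Slc6a5 and Eomes are also high in the brain stem and the olfactory bulb.

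Among 12 general astrocyte markers 5 were higher and 3 lower, against 20.9% and 18.1% of all genes, with a median of 0.12. Aqp4, the water channel of astrocyte endfeet, was higher than each region (11.48, 11.45 and 11.32 against 10.37 to 11.22, difference 0.61), and so was the bicarbonate transporter gene Slc4a4 (0.63). Slc1a2, the main glutamate transporter of forebrain astrocytes, was lower than each region (-0.63, SE 0.081), with 11.95, 12.01 and 12.07 in the cerebella and 12.01 to 12.99 elsewhere. Gfap (-0.57) and Kcnj10 (-0.51) were lower against the mean.

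Myelin genes were highest in the brain stem. None of 12 was higher and 6 were lower, against 20.9% and 18.1% of all genes. Their median was -0.23, and the brain stems held the highest levels. Opalin had the largest difference, -0.75 (SE 0.075), with 7.43, 7.85 and 7.65 in the cerebella, 6.93 to 7.51 in the bulbs, 8.44 to 8.88 in the cortices and 9.20 to 9.60 in the brain stems. With the brain stem left out of the mean, 4 of the 12 were higher and 1 was lower, and with the bulb left out all 12 were lower. Without mouse 2 the lower count was 3.

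Microglial genes were low in the cerebellum as a group. Of 11 measured, 10 were lower, 9 of them than each region, and all 11 had their lowest mean there, where 18.1% and 7.32% of all genes were called so. Cx3cr1, the fractalkine receptor, gave 8.27, 8.26 and 8.24 in the cerebella, 9.18 to 9.35 in the bulbs, 9.45 to 9.59 in the cortices and 9.06 to 9.23 in the brain stems. Its difference was -1.07 (SE 0.066, 2.09-fold lower, adjusted p = 1.26e-09) with no overlap. The complement genes C1qb (-1.20) and C1qc (-1.05) and the growth factor receptor gene Csf1r (-0.90) were likewise below all 9 other samples, and the median of the list was -0.80. The summed signal of the list ran from 11.58 to 11.71 (log2) in the cerebella and from 12.39 to 12.72 in the others. Aif1 alone did not pass the test (-0.16, adjusted p = 0.091). Vascular genes showed no such shift: limma called none of 12 endothelial and pericyte markers, with 1 at an unadjusted p under 0.05, and their differences lay between -0.047 and 0.16 (95% intervals within -0.22 and 0.31).

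Choroid plexus genes were higher in the cerebellum samples, in 10 of 11 cases and in 8 than in each region, with a median of 1.99. Otx2, a factor of choroid plexus and of some granule cells, gave 9.68, 9.88 and 10.14 in the cerebella, 6.32 to 6.60 in the bulbs, 7.82 to 8.06 in the cortices and 8.63 to 8.74 in the brain stems, a difference of 2.21 (SE 0.089). Kcnj13, a potassium channel of the choroid epithelium, gave 11.52, 11.47 and 11.41 against 8.69 to 10.17, a difference of 1.99 (SE 0.15). Slc4a5 (2.15) and Clic6 (1.73) behaved alike, and Foxj1 of motile cilia did not pass the test (-0.039). Ttr, transthyretin of the choroid epithelium, shows how these genes varied between samples. It read 13.37, 13.41 and 13.63 in the cerebella, 7.15, 7.11 and 6.48 in the bulbs, 12.82, 12.69 and 12.71 in the cortices, and 12.39, 12.98 and 8.95 in the brain stems. Its difference of 3.11 (SE 0.45) was 2.71 without the brain stem of mouse 3 and 3.90 with that brain stem alone. The summed choroid signal ran from 14.17 to 14.41 (log2) in the cerebella, from 13.20 to 13.38 in the cortices and from 11.34 to 13.55 in the brain stems, and was lower still in the bulbs. The part of the choroid plexus taken in each dissection was not tested. Among 10 meningeal genes, 3 were higher (Igf2, 0.67; Lum, 0.57; Col1a2, 0.40) and Islr was lower (-0.61), the last with its high levels in the bulbs alone. Of all genes 20.9% were called higher and 18.1% lower. Without mouse 3, or without its brain stem alone, 5 of the 10 were higher. Of the red blood cell genes only Alas2 had a value, with a difference of -0.050 that did not pass the test.

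Transcription factors of the midbrain, hindbrain and rhombic lip were higher in 10 of 17 cases and lower in 5, with a median of 0.71. Over all genes the shares were 20.9% and 18.1%. En2 gave 10.97, 11.22 and 11.17 in the cerebella, 6.00 to 6.35 in the bulbs and cortices, and 7.20, 7.58 and 7.68 in the brain stems. Barhl2, a BarH-like homeobox gene, gave 11.13, 11.35 and 11.32 against 7.83 to 9.44, a difference of 2.71 (SE 0.080), and its paralogue Barhl1 was 1.08 higher. Both MEIS paralogues were called in opposite directions. Meis2 gave 8.47, 8.07 and 7.87 in the cerebella, 13.07, 13.17 and 13.37 in the bulbs, 11.89 to 12.02 in the cortices, and 11.14, 11.56 and 11.36 in the brain stems, 16.5-fold lower in the cerebellum. Meis1, named after its values were seen, gave 10.78, 10.76 and 10.76 in the cerebella and 8.14 to 10.61 elsewhere, a difference of 1.50 (SE 0.079). Pou3f1 was lower (-0.71).

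All 16 forebrain factors were lower in the cerebellum, 12 of them than in each region, with a median of -1.64. Over all genes the shares were 18.1% and 7.32%. Dlx1, a homeobox factor of forebrain inhibitory neurons, gave 6.71, 6.41 and 6.66 in the cerebella, 11.70, 11.98 and 12.13 in the bulbs, 9.57, 9.52 and 9.50 in the cortices, and 8.49, 8.71 and 7.85 in the brain stems. Its difference was -3.35 (SE 0.14, 10.2-fold lower). Lhx2, a selector gene of the cortex, differed by -2.99 (SE 0.080), Dlx5 by -2.45 (SE 0.12) and the orphan receptor gene Nr2e1 by -2.00 (SE 0.10), and in each the cerebella were below all 9 others. Among the brain stems, that of mouse 3 had the lowest level of each of these 4 factors. Among 18 Hox genes, which pattern the caudal hindbrain and spinal cord, 7 were lower and none higher, against 18.1% and 20.9% of all genes. Hoxb5 gave 5.82, 5.64 and 5.80 in the cerebella, 5.55 to 5.88 in the bulbs and cortices, and 7.32, 7.52 and 7.71 in the brain stems, so its difference of -0.56 (SE 0.077) rested on the brain stem. Without the brain stem in the mean none of the 18 was called lower, while 2 were without mouse 2 and 4 without mouse 3.

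Neurotransmitter receptor genes differed by subunit. Of 11 GABA-A receptor subunits 3 were higher and 8 lower, against 20.9% and 18.1% of all genes. Gabrd, the delta subunit that joins alpha 6 in extrasynaptic granule cell receptors, gave 10.56, 10.51 and 10.55 in the cerebella and 8.24 to 9.53 elsewhere, a difference of 1.47 (SE 0.073). Gabra3 gave 9.86, 9.79 and 9.79 against 11.92 to 12.23 (-2.27, SE 0.064), and Gabrg3 gave 7.57, 7.23 and 7.38 against 9.71 to 10.83 (-2.93, SE 0.092). Thus the alpha 6 and delta subunits were above, and the alpha 3, alpha 5 and gamma 3 subunits below, all other samples.

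Among NMDA receptor subunits the 2C gene was higher and the 2B gene lower. Grin2c, whose subunit replaces 2B as granule cells mature, gave 10.71, 10.70 and 10.59 in the cerebella and 8.38 to 9.39 elsewhere, a difference of 1.81 (SE 0.12, 3.51-fold). Grin2b gave 8.43, 8.34 and 8.38 in the cerebella and 10.35 to 11.76 elsewhere, a difference of -2.79 (SE 0.10, 6.89-fold lower). Both sets of cerebellar values lay outside the range of the other 9 samples. Over all 16 AMPA, kainate, NMDA and delta receptor genes with a value, 3 were higher and 7 lower, against 20.9% and 18.1% of all genes. The 3 were Grin2c, Gria4 (1.07) and the kainate receptor gene Grik2 (0.93).

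Metabotropic glutamate receptors split in the same manner, with 1 of 7 higher and 5 lower, against 20.9% and 18.1% of all genes. Grm4, the presynaptic receptor of parallel fibres, gave 11.81, 11.82 and 11.62 in the cerebella, 10.27, 10.61 and 10.89 in the bulbs, and 9.20 to 9.83 in the cortices and brain stems, a difference of 1.94 (SE 0.097). Grm5, the postsynaptic receptor of forebrain neurons, gave 8.51, 8.65 and 8.48 in the cerebella and at least 11.04 in every other sample, a difference of -2.92 (SE 0.071). Grm7 (-1.33), Grm8 (-0.94) and Grm2 (-0.93) were also lower than each region. The cerebellins divided into pairs: Cbln1 and Cbln3 were higher, and Cbln2 and Cbln4, expressed in forebrain and thalamic circuits, were lower. Cbln2 gave 6.32, 6.22 and 6.53 in the cerebella and 8.92 to 9.82 elsewhere (-3.02, SE 0.076), and Cbln4 gave 7.35, 6.90 and 6.89 against 9.01 to 9.78 (-2.37, SE 0.079). Of the 11 cerebellins, C1q-like proteins, neurexins and partners with a value, 3 were higher and 7 lower, beside the same shares of all genes.

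**Figure D3:**
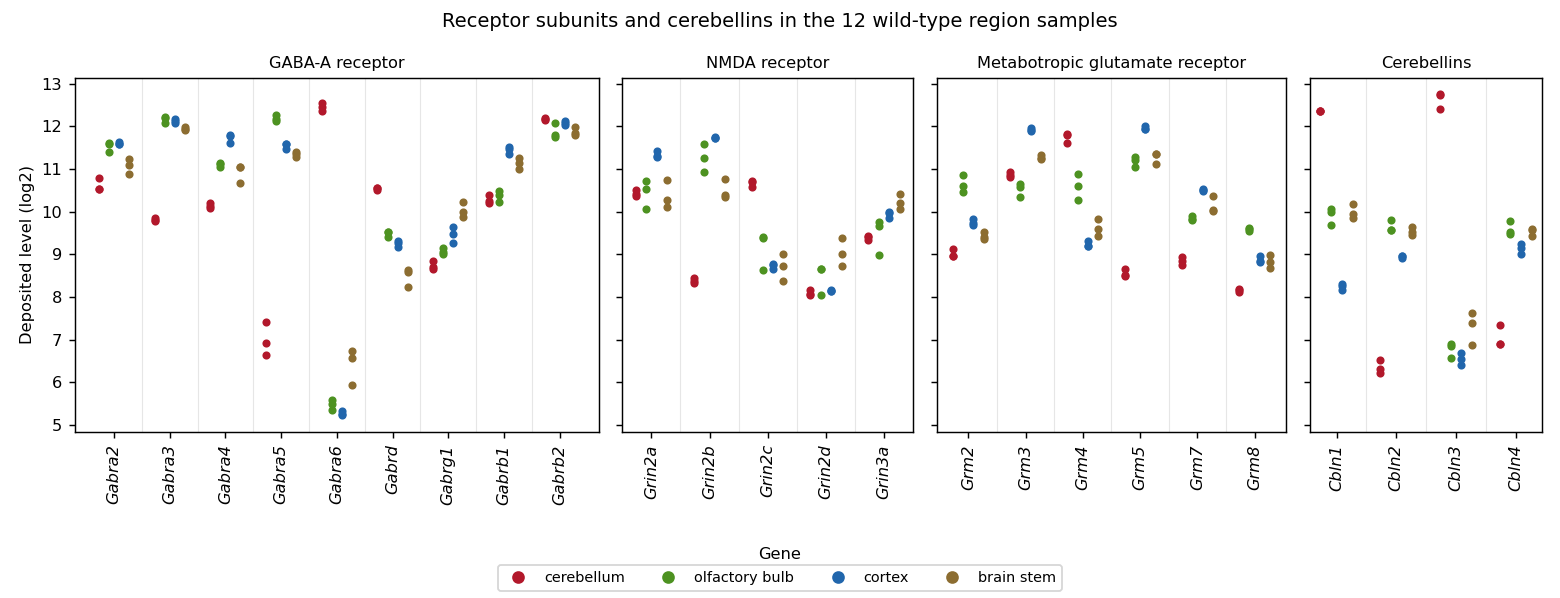
Levels (log2) of GABA-A receptor subunits, NMDA receptor subunits, metabotropic glutamate receptors and cerebellins in the 12 +/+ region samples, 1 point per sample, coloured by region. Gabra6, Gabrd, Grin2c, Grm4, Cbln1 and Cbln3 have all 3 cerebella on top, and Gabra5, Grin2b, Grm5 and Cbln2 have all 3 at the bottom.

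The calcium signalling machinery of Purkinje cells was higher in 13 of 17 cases and lower in 2, with a median of 1.10. The shares over all genes were 20.9% and 18.1%. Atp2a3, an endoplasmic reticulum calcium pump, gave 10.64, 10.69 and 10.77 in the cerebella and 7.04 to 7.64 elsewhere, a difference of 3.37 (SE 0.072). Homer3, which ties metabotropic receptors to calcium stores, gave 11.08, 11.02 and 10.94 against 8.06 to 8.50 (2.76, SE 0.078). Prkca, the alpha form of protein kinase C, was lower than each region, with 9.87, 9.89 and 9.99 in the cerebella and 10.22 to 12.11 elsewhere (-1.21, SE 0.092). Camk2b (-0.28) was the other lower member; its levels overlapped with the brain stem, and its call was lost without mouse 1 and without mouse 2.

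Genes of nitric oxide and cyclic GMP signalling were divided evenly, with 6 of 14 higher and 7 lower. The shares over all genes were 20.9% and 18.1%. Ppp1r17, the substrate of cyclic GMP-dependent kinase, had the largest difference, and of the phosphodiesterases Pde5a (1.65, SE 0.076) and Pde9a (1.42, SE 0.063) were higher while Pde1a (-2.47, SE 0.10) and Pde1b (-1.97, SE 0.066) were lower than each region. Pde9a, which degrades cyclic GMP, gave 10.36, 10.46 and 10.39 in the cerebella and 8.52 to 9.28 elsewhere. Pde1b, activated by calmodulin, gave 9.13, 9.17 and 9.09 against 10.86 to 11.46. Neither gene had overlapping groups.

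Voltage-gated channels differed by subtype as well. Of 12 sodium channel genes and partners 5 were higher and 4 lower, against 20.9% and 18.1% of all genes. Scn3b, a sodium channel beta subunit, gave 7.28, 7.24 and 7.21 in the cerebella and 10.53 to 11.41 elsewhere, and Scn3a, an alpha subunit of immature neurons, gave 5.50, 5.58 and 5.53 against 8.19 to 9.16, differences of -3.84 (SE 0.077) and -3.11 (SE 0.079). Of the intracellular partners, Fgf13 was lower (-1.63) and Fgf14, mutated in an inherited ataxia, higher (0.78). Of 23 potassium and HCN channel genes 11 were higher and 5 lower, beside the same shares of all genes. Kcnc2, a fast delayed rectifier of cortical interneurons, gave 7.11, 7.02 and 6.88 against 9.38 to 10.43 (-3.11, SE 0.085), and Kcna4, an A-type channel, gave 6.76, 6.86 and 6.62 against 8.71 to 10.12 (-2.61, SE 0.064). Kcnj12, an inward rectifier, gave 9.04, 9.07 and 9.04 against 7.47 to 7.92 (1.28, SE 0.081). In these 5 channel genes the cerebella lay outside the range of the other samples.

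Neuropeptide genes were low in the cerebellum: 17 of 18 were lower, 10 of them than each region, and none was higher. Their median was -1.32. Over all genes 18.1% were lower, 7.32% lower than each region, and 20.9% higher. Tac1, the precursor of substance P, gave 5.56, 5.56 and 6.05 in the cerebella, 7.11 to 7.80 in the bulbs, 10.68 to 11.11 in the cortices and 9.62 to 9.90 in the brain stems (-3.62, SE 0.11). Sst, somatostatin, gave 8.18, 7.98 and 8.14 against 9.73 to 12.51 (-3.38, SE 0.11). Trh, thyrotropin-releasing hormone, gave 6.45, 6.00 and 6.14 against 7.52 to 10.97 (-2.77, SE 0.10), and Adcyap1 was lower by the same rule (-1.63, SE 0.071). Immediate early genes, which report recent neuronal activity, were lower in 12 of 16 cases and higher in none, but only 7 were lower than each region. The summed signal of the list ran from 13.18 to 13.55 (log2) in the cerebella and from 12.89 to 13.46 in the brain stems, which overlapped, against 14.34 to 14.66 in the bulbs and cortices. Egr1 and Arc are among the 7. Egr1 gave 9.41, 9.51 and 9.48 in the cerebella, 11.13 to 11.53 in the bulbs and cortices, and 9.85 to 10.38 in the brain stems (-1.46, SE 0.10), and Arc gave 7.91, 8.07 and 8.07 against 8.55 to 10.97 (-2.23, SE 0.16).

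Forebrain neuron markers were low with few exceptions. Over all genes 18.1% were lower and 20.9% higher. Of 13 cortical pyramidal markers 10 were lower (median -1.66). Nrgn, neurogranin of dendritic spines, gave 7.85, 7.61 and 7.95 in the cerebella and 10.38 to 12.35 elsewhere (-3.62, SE 0.15), and Bcl11b, a factor of deep-layer and striatal neurons, gave 7.13, 7.10 and 7.34 against 8.25 to 10.25 (-2.27, SE 0.12). Neurod2, a relative of Neurod1 that granule cells share with pyramidal neurons, was the 1 member higher than each region, with 10.66, 10.98 and 10.94 against 8.93 to 10.54 (1.29, SE 0.10). Striatal markers were lower in 6 of 8 cases, with Drd2 at -2.32 and Rgs9 at -1.72, while Ppp1r1b was higher against the mean (0.59) but below the cortices. Monoamine and cholinergic markers were lower in 10 of 11 cases, mostly through 1 or 2 regions: Tph2 (-1.37) was high in the brain stems alone, and Th (-1.69) was highest in the bulbs at 12.44 to 12.61. Of the 5 olfactory sensory neuron genes 4 were lower, with their high levels in the bulbs, and Gng13 was higher (1.30), since the cerebella at 10.39 to 10.90 stood with the bulbs at 9.92 to 10.80. Of 16 CaMKII, calcineurin and spine genes 7 were lower, among them Camk2a (-2.17), and 3 higher, against 18.1% and 20.9% of all genes. Shank2 was 1 of the 3 (0.45), and its other probe sets gave 1.97 and 1.61. Of 7 neurofilament and intermediate filament genes 3 were lower and vimentin (Vim, 0.84) higher, with a median of -0.15, beside the same shares. With the brain stem left out of the mean 4 were higher and 1 lower, with a median of 0.18. The neurofilament genes Nefl (-0.49) and Nefm (-0.29) had their highest levels in the brain stems.

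Genes mutated in inherited ataxias showed no common direction. Of 24 with a value 8 were higher and 4 lower, against 20.9% and 18.1% of all genes, with a median of 0.045 against 0.029 over all genes. Arrays centred on their medians gave 8 lower and array weights 7. Car8 (4.18), Syne1 (1.16), which encodes a nuclear envelope protein, and Fgf14 (0.78) were higher than each region, and Ppp2r2b, a phosphatase subunit, was lower than each, with 9.24, 9.32 and 9.26 in the cerebella and 10.20 to 10.69 elsewhere (-1.14, SE 0.070). Members of the Sonic hedgehog pathway, which drives the growth of granule cell precursors, were higher in 6 of 11 cases and lower in 1. The same shares of all genes stand beside these counts. Boc, a co-receptor, gave 11.03, 11.01 and 10.98 in the cerebella and 8.25 to 9.36 elsewhere (2.16, SE 0.079). The receptor gene Ptch1 (0.78), the co-receptor gene Gas1 (0.55) and the target Gli1 (0.51) were higher than each region as well.

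**Figure D4:**
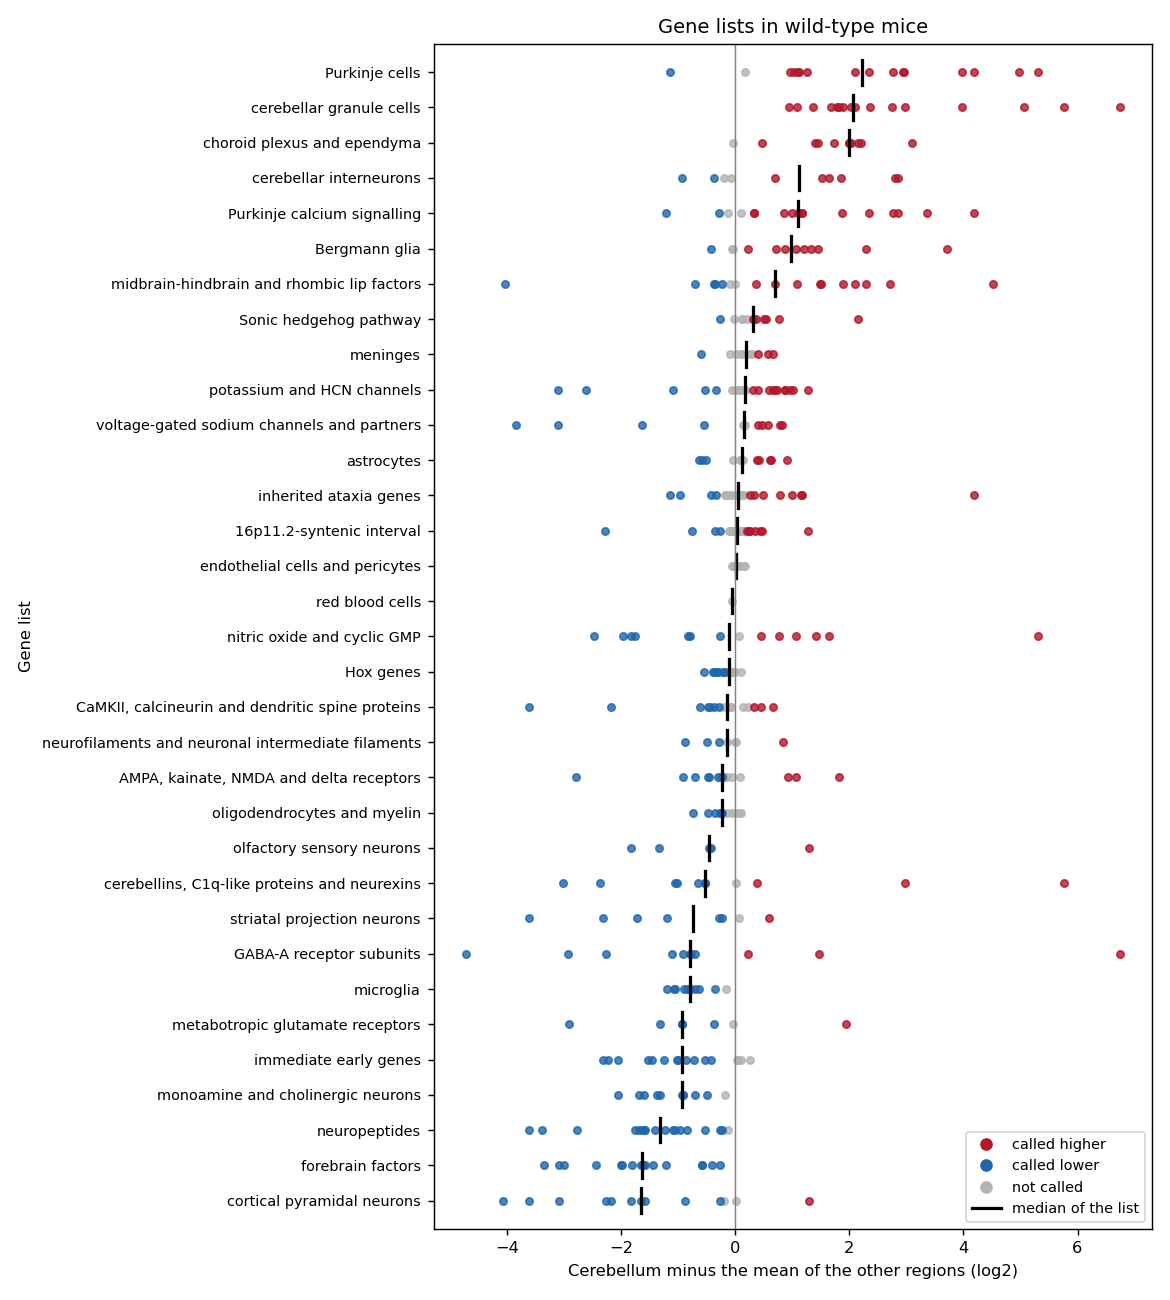
Difference of every measured member of the 33 gene lists, cerebellum minus the mean of the other regions (log2), 1 point per gene with a line at each list's median. Granule cell markers all lie above 0 with a median of 2.06, forebrain factors all lie below 0 with a median of -1.64, and GABA-A receptor subunits run from -4.71 to 6.74.

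A call against the mean can also come from a level that the cerebellum shares with 1 region. Higher against the mean and the other 2 regions, but level with (within 0.25) or below the remaining one, were 504 genes shared with the olfactory bulb (2.53% of all genes), 526 with the cortex (2.64%) and 494 with the brain stem (2.48%). Lower by the same rule were 666 genes shared with the olfactory bulb (3.34%), 316 with the cortex (1.59%) and 368 with the brain stem (1.85%). With the bulb, the cerebellum shared high levels of Reln, reelin of granule and mitral cells, at 11.85 to 11.99 in the cerebella, 11.44 to 11.88 in the bulbs and 9.68 to 10.66 in the rest. With the cortex it shared Kcnab1, a potassium channel beta subunit, at 11.08 to 11.13 in the cerebella and 11.13 to 11.29 in the cortices against 8.02 to 8.47 in the bulbs. With the brain stem it shared Aldh1a1, a retinal dehydrogenase, at 11.60 to 11.73 and 11.29 to 11.65 against 9.19 to 10.18 in the bulbs and cortices. Low levels in both cerebellum and bulb were those of Grp, gastrin-releasing peptide, at 6.48 to 6.69 and 6.56 to 6.66 against 8.57 to 9.62. Low with the cortex was Sfrp2, a secreted WNT antagonist, at 6.83 to 7.09 and 7.08 to 7.31 against 8.27 to 8.57. Low with the brain stem was Slc9a4, a sodium-proton exchanger, at 6.80 to 6.99 and 6.97 to 7.12 against 7.98 to 9.34.

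MicroRNA genes are on these arrays as probe sets to the hairpin or its primary transcript, so their levels are not those of the mature strand. They were examined after the gene values were seen. Of 297 measured, 88 were higher (29.6%) and 13 lower (4.38%), against 20.9% and 18.1% of all genes, with 61 and 23 after centring each array on its median. Higher than each region were 31 and lower 4. Their median difference was 0.098, and their probe sets were dim, with a median level at percentile 23.3 of all genes. Those higher than each region with a mean difference of at least 2-fold were Mir30b (1.76), Mir15a (1.50), Mir204 (1.41), Mir690 (1.33), Mir340 (1.23), Mir505 (1.10), Mir670 (1.09) and Mir103-2 (1.04), and those lower were Mir708 (-1.40), Mir137 (-1.35) and Mir490 (-1.12). Mir30b gave 8.09, 8.15 and 7.76 in the cerebella and 5.92 to 6.60 elsewhere. Mir137, a microRNA of forebrain neurons, gave 5.82, 5.73 and 5.64 in the cerebella and 6.56 to 8.03 elsewhere. In both the groups did not overlap.

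All 6 genes of the mir-30 family were higher in the cerebellum, and 5 of them than each region. Besides Mir30b these were Mir30e (0.90), Mir30c-2 (0.83), Mir30d (0.66) and Mir30a (0.59), while Mir30c-1 (0.32) was higher against the mean. Mir30e and Mir30c-1 lie close together on the same strand (chr4:120772618 and chr4:120769546), and so do Mir30a and Mir30c-2 (chr1:23272274 and chr1:23291714). The 6 genes may therefore not be 6 separate observations. These genes make mature strands with the same seed, which is why the sequences are shown; capitals mark bases 2 to 8 (RefSeq, GRCm38.p6). Of 16 microRNA genes looked up 14 had an entry, and Mir30b and Mir30d are named only.
mmu-miR-30a-5p: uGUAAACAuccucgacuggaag
mmu-miR-30c-5p: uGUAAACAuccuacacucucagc
mmu-miR-30e-5p: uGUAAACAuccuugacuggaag
mmu-miR-204-5p: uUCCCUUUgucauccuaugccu
mmu-miR-15a-5p: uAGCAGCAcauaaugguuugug
mmu-miR-137-3p: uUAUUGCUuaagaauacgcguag
mmu-miR-708-5p: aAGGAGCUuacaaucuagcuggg
The 3 mir-30 strands share the seed GUAAACA, and none of the other 4 shown has it. Mir204, Mir15a, Mir137 and Mir708 are shown as the other members with the largest differences among those with an entry.

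Genes of the interval that the study varied were also read in the +/+ mice, where every mouse has 2 copies. Of 30 with a value, 7 were higher in the cerebellum and 4 lower, with a median of 0.036. These counts lie near the shares over all genes (20.9% and 18.1%). Centring the arrays gave 4 higher and 4 lower. Without mouse 2 there were 5 and 2, and without mouse 3 there were 4 and 3. Doc2a, a calcium sensor of spontaneous transmitter release, had the largest difference of the interval. It gave 6.98, 7.07 and 7.24 in the cerebella, 8.63, 8.98 and 8.95 in the bulbs, 9.79, 9.68 and 9.81 in the cortices, and 9.34, 9.51 and 9.78 in the brain stems. All 3 cerebella lay below the other 9 samples (-2.29, SE 0.078, 4.87-fold lower, adjusted p = 1.10e-12). Kctd13, an adaptor of the cullin 3 ubiquitin ligase, was also lower than each region, with 9.57, 9.43 and 9.35 against 9.95 to 10.47 (-0.76, SE 0.081). Pagr1a, a subunit of histone methyltransferase complexes, was higher than each, with 11.19, 11.50 and 11.60 against 9.75 to 10.47 (1.28, SE 0.096), as were Mvp, the major vault protein (0.47), and Slx1b, a structure-specific nuclease subunit (0.43). The other calls, Tlcd3b (0.35), Qprt (0.25), Cd2bp2 (0.24), Tbx6 (0.21), Coro1a (-0.35) and Aldoa (-0.26), were small, and each was lost under some alternative setting.

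The comparison was repeated in 19 region samples of the 5 df/+ and dp/+ mice, which share no sample with the +/+ mice; dp/+ mouse 3 has no cortex sample. There, 5646 genes were higher in the cerebellum (28.3%) and 5068 lower (25.4%). Of the 4158 genes higher in +/+ mice 3354 (80.7%) were called higher there, and of the 3616 lower genes 3320 (91.8%) were called lower, which are 59.4 and 65.5% of the calls in the df/+ and dp/+ mice. For genes called against each region in +/+ mice, the numbers were 1759 of 1834 and 1446 of 1460. All 258 genes at least 2-fold over each region, and all 322 at least 2-fold under each, were called the same way. Gabra6 differed by 6.63 in those mice against 6.74 in +/+ mice, Cbln3 by 5.92 against 5.77, Ddn by -4.52 against -5.21 and Gabra5 by -4.79 against -4.71. Opposite calls were made for 2 higher and 5 lower genes. Within the interval Cd2bp2 had opposite signs, 0.24 in +/+ mice and -0.069 in the others.

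**Figure D5:**
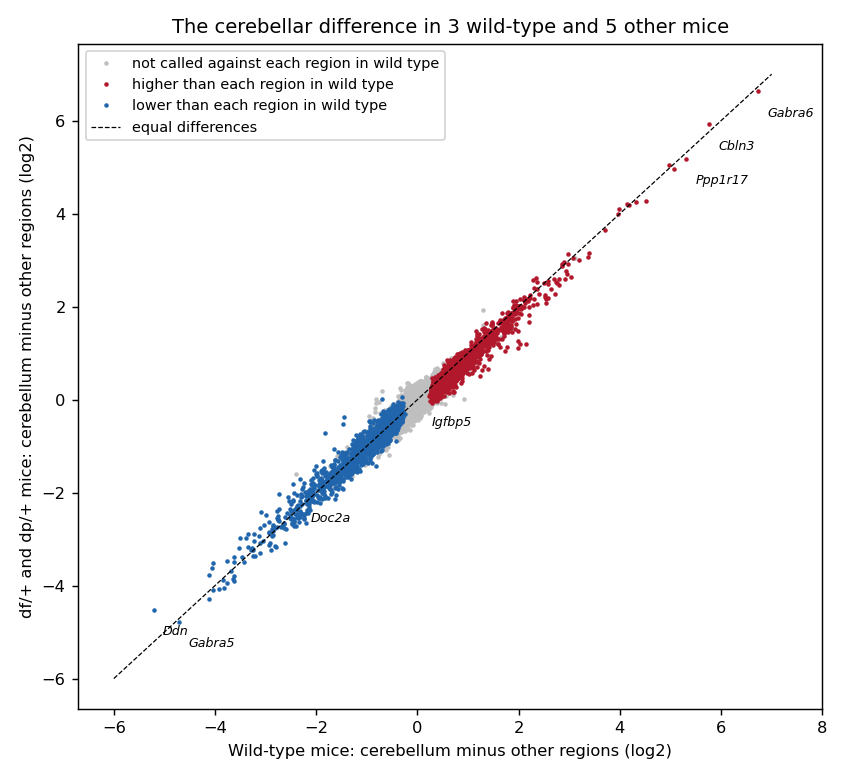
Difference between the cerebellum and the mean of the other regions (log2) in 3 +/+ mice on the horizontal axis and in the 5 df/+ and dp/+ mice on the vertical axis, 1 point per gene. Gabra6 lies at 6.74 and 6.63 and Ddn at -5.21 and -4.52.

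Whether the cerebellar difference itself depended on genotype was tested over all 31 region samples (F test, mouse as a random block). It called 2 of 19938 genes, 0.0100%, with 1443 at an unadjusted p under 0.05. As a check of the labels, 26 of the 30 interval genes had their lowest cerebellar mean in df/+ and their highest in dp/+ mice, with median differences from +/+ of -0.53 and 0.33. The share of all genes with this order is not given here. Igfbp5, an insulin-like growth factor binding protein, had cerebellar means of 10.62 in +/+, 10.89 in df/+ and 10.22 in dp/+ mice. Its cerebellar difference was larger by 0.32 in df/+ and changed by -0.45 in dp/+ mice relative to +/+ (adjusted p = 0.000474, limma). Doc2a had cerebellar means of 7.10 in +/+, 7.05 in df/+ and 7.36 in dp/+ mice, and cortical means of 9.76, 9.10 and 10.10. Its cerebellar difference changed by 0.67 in df/+ and by -0.12 in dp/+ mice relative to +/+ (adjusted p = 0.0459, limma). Both calls rested on few mice: with 1 mouse left out in turn, the count ran from 0 (without df/+ mouse 1, or dp/+ mouse 2) to 120 (without dp/+ mouse 3), the adjusted p of Igfbp5 from 0.000297 to 0.0566 and that of Doc2a from 0.00229 to 0.392. Without a block for the mouse 1 gene was called. Svep1 and Prps2 (adjusted p = 0.062 for both) and Kcna4 (0.0789) came next and did not pass.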

How the data were processed

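Expression in 4 brain regions was measured on Affymetrix arrays. The authors' deposited values are on a log2 scale and were made with Affymetrix Expression Console and RMA, per the submitters' processing notes. Versions and the array library are not given in the sources used here, and the log base was read from the values. RMA quantile normalisation forces arrays to similar distributions, so a shift of all genes in 1 region cannot be seen. The labels give no hybridisation batch or date.

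Of 35556 probe sets 21789 have 1 gene symbol in the platform annotation, 1621 have several and 12146 have none. The probe set with the highest mean stood for each of 19938 genes. Technical repeats were averaged, and the olfactory bulb of mouse 3 is an array labelled as a repeat.

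limma 3.58.1 in R 4.3.3 (lmFit, eBayes) fitted region and mouse to the 12 +/+ samples, with Benjamini-Hochberg adjustment at 0.05. Same-numbered samples come from 1 animal by the labels. Deviations of regions of 1 mouse correlated between -0.054 and 0.47 (median 0.14 over 18 pairs), so the mouse was a block. In the genotype test, over 31 samples, the mouse entered as a random block (correlation 0.12). On simulated data with 100 genes changed by 0.5 and 100 by 1 (log2) among 19938, the comparison with the mean recovered 75 and 100, with 9 false calls. No other gene differed between regions there, and the noise was normal and independent. In the data 7774 genes were called, so the simulation does not give the number of false calls among them. The number of arrays limits the precision.

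The members and the gene lists were chosen with earlier results of these data known, so list counts are descriptions. Genes named are the 15 with the largest differences in each direction among those called against each region with the same sign in every mouse, the 4 per region of the shared patterns, up to 4 per list with the smallest p and 2 opposite ones, all cerebellar cell markers and interval genes, and 5 of the genotype test. Aif1, Foxj1, Kcnj10, Meis1, Tbr1, Ttr and the microRNA genes were named after their values were seen.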

Additional observations from a re-analysis of the deposited data

Results flagged for a closer look

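The cerebellar difference varied with genotype for 2 genes by the F test over 31 region samples of 8 mice (limma, mouse as a random block). Igfbp5 had an adjusted p of 0.000474. Its difference from the mean of the other regions was 0.11 in +/+ mice, and relative to +/+ it changed by 0.32 in df/+ and by -0.45 in dp/+ mice. Its cerebellar means were 10.62, 10.89 and 10.22, while its cortical means were 10.33, 10.30 and 10.30. Doc2a, which lies in the interval, had an adjusted p of 0.0459, with a difference of -2.29 in +/+ mice that changed by 0.67 in df/+ and by -0.12 in dp/+ mice. Its means in the brain stem were 9.54 in +/+, 8.77 in df/+ and 10.01 in dp/+ mice, and in the cerebellum 7.10, 7.05 and 7.36. With 1 mouse left out in turn the adjusted p of Igfbp5 ran from 0.000297 to 0.0566 and that of Doc2a from 0.00229 to 0.392.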

How the results depend on the processing

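Of the 461 genes examined by name (389 with brighter genes only), 340 were called. None of these called genes changed sign under another normalisation, weighting or block, or with any mouse left out. Under each such setting 0 to 28 genes lost a call. Differences of genes without a call could change sign, as that of Dcn did (0.018, and -0.010 with the first array of each sample). Called genes changed sign only where a region was left out of the mean. Without the olfactory bulb the differences of Cnga2 (0.035), Fabp7 (0.031), Islr (0.14), Kcnc4 (-0.19), Nxph4 (0.049) and Omp (0.098) turned. Without the cortex that of Rarb turned (0.17). Without the brain stem those of C1ql4 (0.016), Cldn11 (0.15), Dbh (0.12), Ermn (0.24), Hoxa5 (0.20), Hoxb2 (0.0029), Hoxb4 (0.058), Hoxb5 (0.049), Hoxc4 (0.011), Hoxc5 (0.080), Mal (0.068), Nefm (0.22), Nxph4 (0.0094), Pax5 (0.010), Pax8 (0.0080) and Slc6a4 (0.051) turned. A minimum of 2-fold, which can only remove calls, left 1115 calls against the mean (445 higher, 670 lower) and 580 against each region (258 and 322). With 1 mouse left out, calls against the mean numbered 5685 to 7152 (3064 to 3646 higher, 2621 to 3506 lower) and those against each region 2211 to 2955 (1250 to 1534 higher, 961 to 1421 lower), in fits with fewer samples. Without the replicate block the counts were 7074 (3761 and 3313) against the mean and 2949 (1634 and 1315) against each region. The genotype test then called 1 gene. Array weights gave the most calls, 9597 (5087 and 4510) against the mean and 3826 (2078 and 1748) against each region. Quantile normalisation over the +/+ samples gave 8181 and 3473, and 1 difference per mouse gave 8126 and 3303. Without the olfactory bulb of mouse 1 the counts were 7966 (4260 and 3706) against the mean and 1793 and 1476 against each region. The genotype test called 0 to 120 genes with 1 mouse left out. In the df/+ and dp/+ mice 8999 to 10342 genes were called with 1 mouse left out, and 7594 in dp/+ mice alone, against 10714. Some settings were added after the data were seen. They were leaving out the olfactory bulb of mouse 1 or brain stems, leaving out each mouse in the last 2 comparisons, and the microRNA counts. Leaving dp/+ mouse 3 out of the df/+ and dp/+ comparison (10342 calls) was planned. The causes of these changes were not tested. The 3 mice in each region limit the precision, and probe sets near the array background understate differences.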
